A study of Mus musculus with 8 samples.

Results

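The genes described here encode proteins that bring long-chain fatty acids into the cell and couple them to coenzyme A. They were 9 members chosen by symbol (Cd36, Slc27a1, Slc27a2, Slc27a4, Acsl1, Acsl3, Acsl4, Acsl5 and Acsl6), of 24532 genes in the deposited tables. All 9 were present in every library. Poly(A) RNA had been sequenced from the liver and the subcutaneous fat of male C57BL/6 mice, WT or MKRN1-null, that received an HFD (high fat diet) from an age of 6 weeks for 19 weeks and were labelled as 24 weeks old. MKRN1 is an E3 ubiquitin ligase, and the null allele was carried in the whole body of mice that had been backcrossed to C57BL/6 and compared with WT littermates. Each genotype had 2 libraries in each tissue, 8 in all, and the comparison of interest was MKRN1-null against WT in each tissue.

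Fatty acids cross the plasma membrane with the help of CD36, a scavenger receptor that binds long-chain fatty acids, and of the fatty acid transport proteins encoded by the Slc27 genes. Long-chain acyl-CoA synthetases, encoded by the Acsl genes, then form acyl-CoA, which keeps the fatty acid inside the cell and commits it to oxidation, storage or membrane synthesis. The transport proteins also carry synthetase activity. CD36 is abundant in adipocytes and low in healthy hepatocytes, where it is known to increase with steatosis, whereas Slc27a2 and Slc27a5 are characteristic of liver. ACSL1 is the leading isoform of fat and liver, ACSL3 is found on lipid droplets and the endoplasmic reticulum, ACSL4 prefers arachidonic acid, ACSL5 is found in intestine and liver, and ACSL6 is known from brain and muscle.

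Values are FPKM, a level scaled to the length of the transcript and to the number of mapped fragments of the library, summed over the transcripts of a gene. Depth was 5.72 to 9.24 aligned gigabases per library. Differences are log2 fold changes of FPKM + 1 from limma, MKRN1-null minus WT, with the standard error and with p adjusted over all tested genes by the Benjamini-Hochberg method. Beside the adjusted p, the limits that the study used, a p of 0.05 or less and a change of 0.58 log2 units or more in either direction, were applied to the unadjusted limma p and are called the study thresholds. Mkrn1 itself, the check of genotype, was at 9.42 and 10.1 FPKM in the WT livers and at 2.86 and 2.21 in the MKRN1-null livers, and at 16.8 and 19.3 in WT fat against 4.58 and 2.90 in MKRN1-null fat. The second MKRN1-null fat library stood apart from the others. Its correlation with the other MKRN1-null fat library was 0.894, against 0.988 to 0.995 between the replicates of the other groups, and 12 skeletal muscle marker genes summed to 109835 FPKM in it, against 37.6 in the other MKRN1-null fat and 47.3 and 313 in WT fat. All 12 muscle markers were at or above 1 FPKM in that library, which also held the lowest depth. Results in fat are therefore given with and without each MKRN1-null library. Each library held the markers of its labelled tissue, with 7 of 7 hepatocyte markers at or above 1 FPKM in every liver and 6 of 6 adipocyte markers in every fat library. Such a check cannot show that a library held no other tissue.

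Regulatory sequence at the transcript starts is shown for 4 members, those with the largest falls in MKRN1-null liver (Cd36 and Acsl3) and those that lay higher there (Slc27a2 and Acsl1). Each line holds the 250 bases before an annotated start, from RefSeq on GRCm38.p6 (mm10), read 5′ to 3′ on the strand of the gene. Both strands were searched for AGGTCA, the core hexamer of the sites of nuclear receptors such as PPARγ and HNF4α. They were also searched for the pair AGGTCANAGGTCA with up to 2 mismatches. A match of the pair may overlap with one of the hexamer but need not contain the exact hexamer. Matches are in capitals, on the minus strand of the gene in each case.
Cd36 (chr5:17835897-17836146, minus strand): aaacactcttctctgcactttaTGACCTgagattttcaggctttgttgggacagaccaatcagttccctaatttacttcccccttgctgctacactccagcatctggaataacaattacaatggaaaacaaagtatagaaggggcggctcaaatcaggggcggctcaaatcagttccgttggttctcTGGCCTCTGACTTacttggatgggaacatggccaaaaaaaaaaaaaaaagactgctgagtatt
Slc27a2 (chr2:126552774-126553023, plus strand): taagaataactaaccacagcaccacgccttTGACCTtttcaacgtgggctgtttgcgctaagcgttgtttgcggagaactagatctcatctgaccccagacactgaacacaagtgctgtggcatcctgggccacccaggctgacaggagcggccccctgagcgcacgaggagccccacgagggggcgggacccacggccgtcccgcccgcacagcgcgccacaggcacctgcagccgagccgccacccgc
Acsl1 (chr8:46470787-46471036, plus strand): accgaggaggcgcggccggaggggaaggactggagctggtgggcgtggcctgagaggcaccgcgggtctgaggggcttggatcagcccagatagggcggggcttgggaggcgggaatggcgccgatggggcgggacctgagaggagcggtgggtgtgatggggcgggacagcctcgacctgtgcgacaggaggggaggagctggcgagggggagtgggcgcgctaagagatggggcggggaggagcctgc
Acsl3 (chr1:78657575-78657824, plus strand): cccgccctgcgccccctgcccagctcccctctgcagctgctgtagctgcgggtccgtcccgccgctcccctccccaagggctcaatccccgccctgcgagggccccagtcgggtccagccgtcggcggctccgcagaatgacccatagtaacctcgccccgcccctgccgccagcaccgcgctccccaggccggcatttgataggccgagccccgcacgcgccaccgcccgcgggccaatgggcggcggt
The Cd36 window was poor in G and C (43.2%), whereas Acsl1 (72%) and Acsl3 (75.6%) started in GC-rich sequence. The table held 14 promoters of the 9 members, of which 3 had the hexamer and 1, that of Cd36, the pair. The only Cd36 promoter among them lay before the start at position 17835896, which held a mean of 22.5% of Cd36 FPKM in WT liver. The Cd36 start at 17849792, with 77.2%, had no promoter among them and was not searched. Of all 32851 promoters of this length, 14% had the hexamer and 3.24% the pair within 2 mismatches. A match describes letters only, and the windows without a match say nothing on any factor.

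In WT mice the 9 genes divided the tissues between them. WT liver was led by Slc27a2 (589 ± 32.1 FPKM, SD, n = 2, rank 107 of all genes), followed by Acsl1 (250 ± 2.29), Acsl5 (172 ± 13.1) and Cd36 (80.2 ± 9.30). WT fat was led by Cd36 (1610 ± 8.80, rank 23), Acsl1 (788 ± 49.3, rank 58) and Slc27a1 (204 ± 2.20), the transport protein of fat and muscle. Slc27a2 was listed at 0.0095 and 0 FPKM in WT fat and Acsl6 at 0 in both WT livers. Slc27a4, Acsl3 and Acsl4 were between 2.89 and 15.3 FPKM in every WT library of both tissues. In the order of levels, Acsl3 and Acsl4 overlapped in WT liver (9.62 ± 0.13 and 10.1 ± 1.297) and in WT fat (4.63 ± 0.00022 and 4.44 ± 2.21), and every other pair of neighbours was apart in both libraries. Of 8 members tested between the WT tissues, 7 had an adjusted p under 0.05, against 80.2% of all 12799 genes tested there (17.9% higher in liver and 62.3% lower). Slc27a2 (log2 difference, liver minus fat, 9.20), Acsl5 (2.73), Acsl4 (1.09) and Acsl3 (0.92) were higher in liver. Slc27a1 (−5.37), Cd36 (−4.31) and Acsl1 (−1.65) were higher in fat. For Slc27a4 the difference was 0.17, with a 95% interval from −0.06 to 0.40 (limma, adjusted p = 0.139), but under median-of-ratios scaling, which moved the median of all genes from −0.59 to 0.04, it was 0.85 with an adjusted p of 0.000694.

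**Figure D1:**
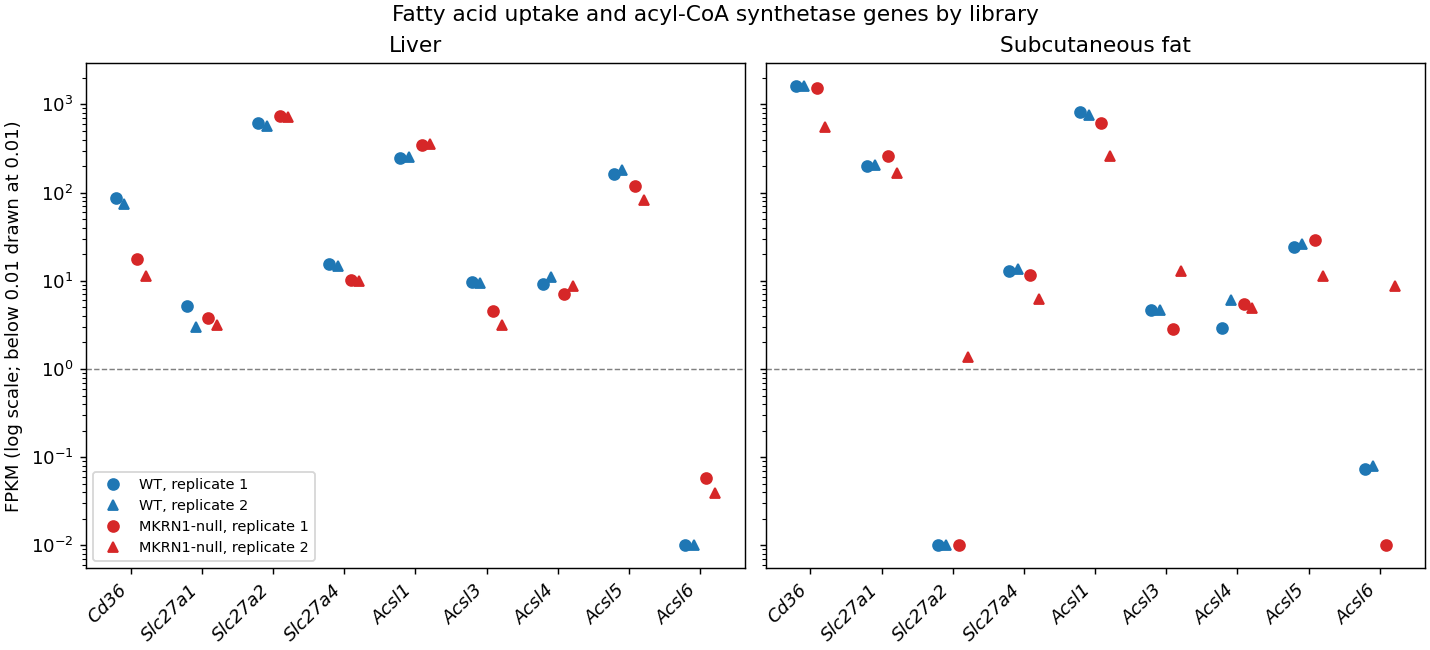
FPKM of the 9 genes in each library, on a log scale, in liver (left) and subcutaneous fat (right), with WT in blue and MKRN1-null in red, circles for replicate 1 and triangles for replicate 2. In liver the red points of Cd36 (17.7 and 11.5) lie far below the blue (86.8 and 73.6), and in fat the red triangles stand apart for most genes. The dashed line marks 1 FPKM.

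In the livers of MKRN1-null mice Cd36, Slc27a4 and Acsl3 fell and Acsl1 rose. These were 4 of 8 members tested (Acsl6 did not reach 1 FPKM in 2 libraries), at an adjusted p under 0.05, against 19.5% of the 10822 genes tested in liver. By direction, 3 fell, against 16.9% of all genes, and 1 rose, against 2.51%. At an unadjusted p under 0.05 there were 6 of 8 members, against 39.5% of all genes. By the study thresholds 3 members fell (Cd36, Acsl3 and Acsl5), against 13.4% of all genes, and none rose, against 2.25%, where 2 of the 8 tested members had a higher fitted value. The median log2 fold change of the 8 members was −0.42, beside −0.17 for all tested genes. Both MKRN1-null values lay below both WT values for 5 members, against 57.5% of all genes, and above for 2, against 11.8%, so that the share below was near that of all genes. Acsl3, Acsl4 and Acsl5 had been named by the study as downregulated in these same livers, which is no independent evidence of their direction. Here Acsl4 passed neither threshold.

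Cd36 (chr5:17781690-17888959, minus strand, Entrez 12491) had 86.8 and 73.6 FPKM in the WT livers and 17.7 and 11.5 in the MKRN1-null livers. Both MKRN1-null livers were far below both WT livers, with a mean that was 0.182 times that of WT. The log2 fold change was −2.41 ± 0.22 (limma, adjusted p = 0.0113). It was the largest change of the 8 members and passed without any one library. Cd36 went from rank 908 of all genes in WT liver to rank 3172 in MKRN1-null liver.

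Of the Slc27 genes 1 of 3 passed in liver. Slc27a4, a broadly expressed transport protein (chr2:29802680-29817522, Entrez 26569), had 15.3 and 14.9 FPKM in WT, against 10.3 and 9.94 in MKRN1-null liver, and fell by 0.53 on the log2 scale (SE 0.08, limma, adjusted p = 0.0212). Under median-of-ratios scaling its log2 fold change was −0.29 with an adjusted p of 0.0834. Slc27a2, a liver and kidney transport protein that also activates very long chain fatty acids (chr2:126553024-126588243, Entrez 26458), had 612 and 566 FPKM in WT, against 747 and 725 in MKRN1-null liver. Its groups did not overlap, with a log2 fold change of 0.32 ± 0.09 (limma, adjusted p = 0.0695), and it passed only under median-of-ratios scaling (0.59, adjusted p = 0.0285). Slc27a1 (chr8:71568927-71586708, Entrez 26457) had 5.23 and 2.95 FPKM in WT, against 3.82 and 3.13 in MKRN1-null liver. Both MKRN1-null values of Slc27a1 lay between those of WT, and the log2 fold change was −0.15, with a 95% interval from −0.78 to 0.47 (limma, adjusted p = 0.67), which turned to 0.055 under median-of-ratios scaling and to 0.17 without WT replicate 1.

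Of the synthetases, Acsl1 (chr8:46471037-46536051, Entrez 14081) had 248 and 251 FPKM in WT, against 344 and 354 in MKRN1-null liver. The groups were narrow and apart, and Acsl1 rose by 0.48 ± 0.08 log2 units (limma, adjusted p = 0.0247). With the replicate number as a block its adjusted p was 0.0564. Acsl3 (chr1:78657825-78707743, Entrez 74205) had 9.71 and 9.53 FPKM in WT, against 4.603 and 3.15 in MKRN1-null liver, and fell by 1.14 log2 units (SE 0.16, limma, adjusted p = 0.0193). Acsl5 (chr19:55253369-55296628, Entrez 433256) had 163 and 181 FPKM in WT, against 120 and 83.2 in MKRN1-null liver. Both MKRN1-null values of Acsl5 were lower and differed between themselves more than those of WT, with a log2 fold change of −0.78 ± 0.19 (limma, adjusted p = 0.0515, unadjusted p = 0.0102), past the study thresholds only. Acsl4 (chrX:142317993-142390535, minus strand, Entrez 50790) had 9.22 and 11.1 FPKM in WT, against 7.17 and 8.74 in MKRN1-null liver. Its groups were apart by a small margin, and the log2 fold change was −0.32, with a 95% interval from −0.67 to 0.04 (limma, adjusted p = 0.161). Acsl6 (chr11:54303824-54361539, Entrez 216739) was listed at 0 in both WT livers and at 0.058 and 0.039 FPKM in the MKRN1-null livers and was not tested.

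**Figure D2:**
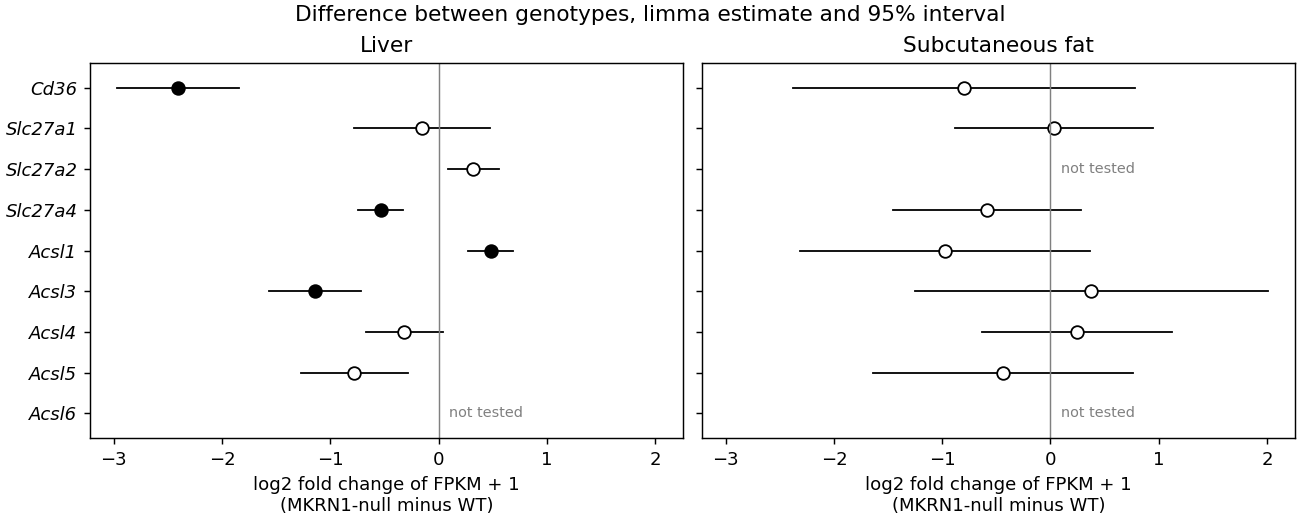
Log2 fold change of FPKM + 1 (MKRN1-null minus WT) of each gene with its 95% interval from limma, in liver (left) and subcutaneous fat (right), with filled points for an adjusted p under 0.05. Filled points are found in liver only (Cd36 −2.41, Acsl3 −1.14, Slc27a4 −0.53 and Acsl1 0.48), and the intervals in fat are wider.

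The number of calls changed with the libraries used. Leaving out 1 library leaves 1 against 2. The share of all genes called is not given for the fits of this paragraph. Their counts are not read as particular to the members. Without WT liver replicate 1, or without MKRN1-null liver replicate 2, Cd36 alone passed the adjusted threshold, and without WT liver replicate 2, or without MKRN1-null liver replicate 1, 3 members did. With all 8 libraries in 1 fit, where the spread of the fat libraries entered, none of the 8 passed the adjusted threshold (limma, Cd36 adjusted p = 0.0621) and Cd36 alone passed the study thresholds. The direction of Cd36, Slc27a2, Slc27a4, Acsl1, Acsl3, Acsl4 and Acsl5 in liver was the same under every alternative run.

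The summed level of the synthetases was similar in the livers of both genotypes, but its makeup was not. The 5 Acsl genes summed to 441 ± 16.5 FPKM (SD, n = 2) in WT and 462 ± 18.6 in MKRN1-null liver. Acsl1 held 56.6 ± 1.60% of this sum in WT and 75.6 ± 4.57% in MKRN1-null liver. The share of Acsl5 was 39.0 ± 1.502% in WT and 21.8 ± 4.69% in MKRN1-null liver, and that of Acsl3 was 2.18 ± 0.11% and 0.83 ± 0.19%. Shares of one sum are not independent of each other, and no test was made on them. The 4 uptake genes summed to 689 ± 43.4 FPKM in WT, against 764 ± 20.6 in MKRN1-null liver, in which the share of Cd36 was 11.6 ± 0.62% and 1.90 ± 0.53% and that of Slc27a2 85.6 ± 0.72% and 96.3 ± 0.58%.

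**Figure D3:**
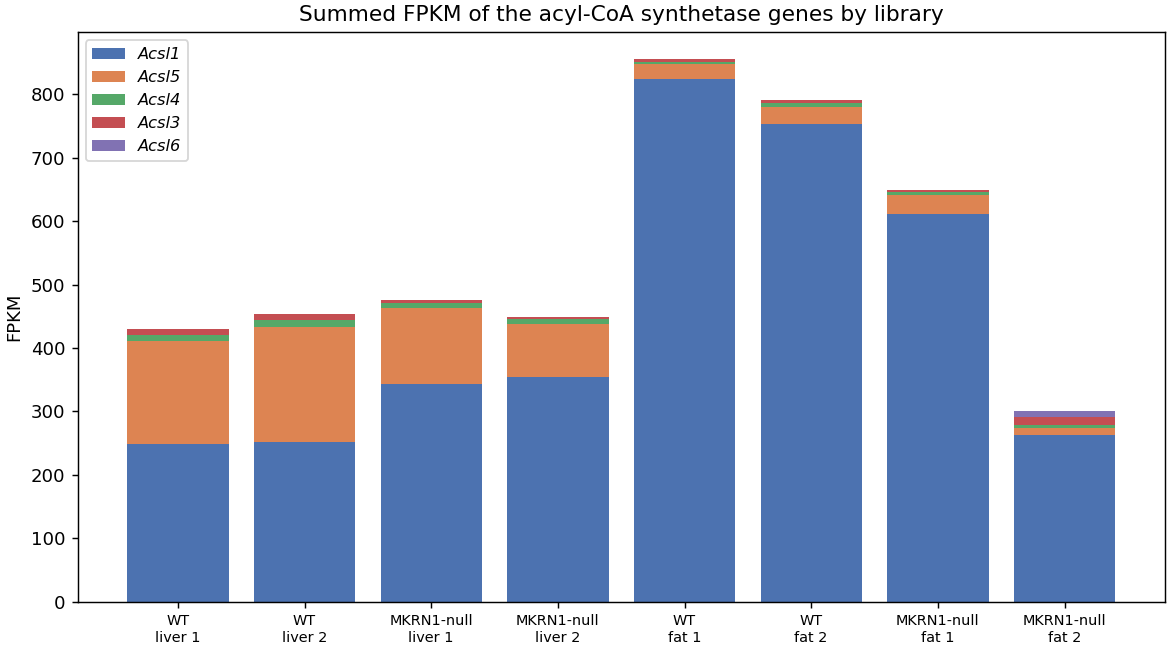
Summed FPKM of the 5 Acsl genes in each of the 8 libraries, as bars stacked by gene. The liver bars have similar heights in WT (441 on average) and MKRN1-null mice (462), with more Acsl1 and less Acsl5 in the latter, and the fat bars are nearly all Acsl1.

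The annotated transcripts of Cd36 begin at 3 starts, whose levels in liver are given here as a description, since the difference between the starts was not tested. Transcripts from the start at position 17849792 of chromosome 5 (2 transcripts, here the middle start) had 63.2 and 60.1 FPKM in WT, against 9.497 and 5.66 in MKRN1-null liver, a mean that was 8.13 times lower. Transcripts from the start at 17835896 (2 transcripts, the start nearest to the coding sequence, shown above with its promoter) had 23.2 and 13.5 FPKM in WT, against 8.22 and 5.81 in MKRN1-null liver, 2.61 times lower. The middle start thus held 72.8% and 81.7% of Cd36 FPKM in the WT livers and 53.6% and 49.4% in the MKRN1-null livers. In fat it held 60.8% to 64.0% in all 4 libraries, including the MKRN1-null library with muscle transcripts. The farthest start, at 17888959, was detected in fat (67.6, 61.9, 73.9 and 10.7 FPKM, in WT and then MKRN1-null) and was at 0 in 3 of 4 livers and at 0.45 in the other.

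Tested one by one among 13409 transcripts of liver, of which 3.09% had an adjusted p under 0.05, both transcripts of the middle start fell, by 2.87 (NM_001159556, limma, adjusted p = 0.0347) and 2.60 log2 units (NM_001159557, adjusted p = 0.0418). Those of the nearest start had log2 fold changes of −1.06 (NM_001159555, adjusted p = 0.119) and −1.19 (NM_007643, adjusted p = 0.103). The first exon of the middle start, which no other start shares, had a summed coverage of 154 and 162 reads per base in WT and 19.1 and 8.94 in MKRN1-null liver. That of the nearest start, part of which (chr5:17835618-17835671) is also an exon of transcripts from the other starts, had 56.3 and 38.7 in WT and 12.6 and 11.4 in MKRN1-null liver. StringTie divides reads among transcripts that share exons, so the values of the starts are estimates, and without any one of the 4 livers no transcript of the members passed.

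**Figure D4:**
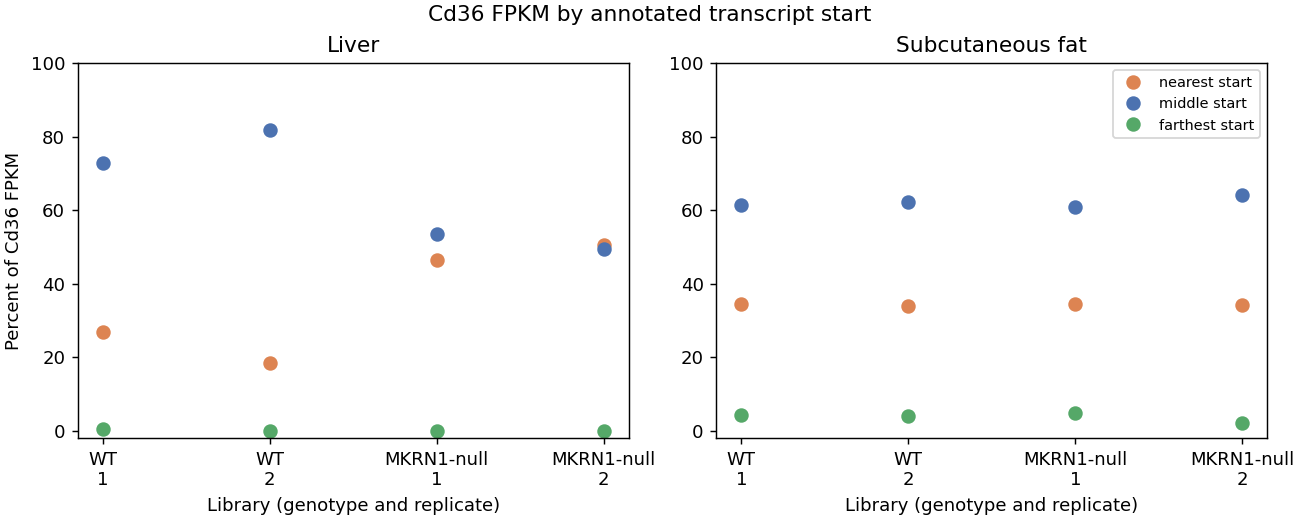
Percent of Cd36 FPKM from the transcripts of each annotated start in each library of liver (left) and subcutaneous fat (right). In liver the middle start (blue) holds 72.8% and 81.7% in WT and 53.6% and 49.4% in MKRN1-null mice, and in fat its share is 60.8% to 64.0%.

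Of the transcripts of the other members, 1 passed in liver. It was the Acsl3 transcript NM_028817, at 5.62 and 4.81 FPKM in WT, against 1.9997 and 1.89 in MKRN1-null liver, which fell by 1.08 log2 units (limma, adjusted p = 0.0459). Its own exon (chr1:78663141-78663280) had a coverage of 13.1 and 20.1 in WT and 4.88 and 3.51 in MKRN1-null liver. The other Acsl3 transcript above 1 FPKM, NM_001033606, had a log2 fold change of −0.88 (adjusted p = 0.112), so that both were lower. Acsl1 was nearly all from the transcript with the upstream start (NM_007981, 97.4% of Acsl1 FPKM in WT, against 96.4% in MKRN1-null liver, log2 fold change 0.47, adjusted p = 0.0565). The coverage of the first exon of this transcript per aligned gigabase was 26.9 and 25.9 in WT and 25.0 and 25.4 in MKRN1-null liver, whereas that of its second exon was 197 and 184 in WT and 229 in both MKRN1-null livers. Both MKRN1-null livers were thus above WT in the second exon and below WT in the first, whose coverage was 0.137 and 0.141 times that of the second in WT and 0.109 and 0.111 times in MKRN1-null liver. This ratio was chosen after its values were seen, and no test was made on it. Acsl4 was divided between NM_019477 (65.9% in WT and 60.0% in MKRN1-null liver, log2 fold change −0.41, adjusted p = 0.141) and NM_001033600 (26.7% and 39.7%, log2 fold change 0.17, adjusted p = 0.439).

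Other genes that handle fatty acids around these members were read from 5 lists in liver, beside 16.9% lower and 2.51% higher of all tested genes at the adjusted threshold and their median of −0.17. The counts of the lists are small and no list was tested as a group. Of 13 genes that act with the transporters, such as lipases, caveolins and binding proteins, 12 were tested and 5 fell, with a median of −0.37. The examples by rule were Fabp4, the fatty acid binding protein of adipocytes and macrophages (47.3 and 44.6 FPKM in WT, 14.7 and 12.8 in MKRN1-null, log2 fold change −1.67, adjusted p = 0.00779), Lpl, lipoprotein lipase (−1.54, adjusted p = 0.00939), Cavin1, a caveolar coat protein (−0.99, adjusted p = 0.0227) and Gpihbp1, the endothelial anchor of lipoprotein lipase (−0.90, adjusted p = 0.0414). Of 16 other synthetase and transport protein genes 9 were tested, of which 2 rose and 2 fell at the adjusted threshold (median −0.17). Acsm1, a mitochondrial medium-chain synthetase, rose by 0.47 (adjusted p = 0.0275) and Acss3, a mitochondrial short-chain synthetase (−1.13, adjusted p = 0.0248), and Acsf3, the mitochondrial malonyl-CoA synthetase (−0.52, adjusted p = 0.0242), fell. Aacs, acetoacetyl-CoA synthetase, passed the study thresholds only (−0.63, adjusted p = 0.0602). Slc27a5, the bile acid and fatty acid synthetase of liver, was the other of the 2 that rose (304 and 314 FPKM in WT, 402 and 420 in MKRN1-null, 0.41, adjusted p = 0.0358), and was named in addition to the rule.

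Of 15 tested genes for acyl-CoA binding and hydrolysis, 2 fell (median −0.27), a share no larger than that of all genes. They were the thioesterases Acot9 (−1.26, adjusted p = 0.00976) and Acot13 (−0.55, adjusted p = 0.0269). Acot11, another thioesterase, passed the study thresholds only (−0.63, adjusted p = 0.0521). Of the 7 genes of the carnitine shuttle, which carries acyl groups into mitochondria, 1 fell at the adjusted threshold and 3 by the study thresholds (median −0.28), against 16.9% and 13.4% of all genes. Crot, a peroxisomal carnitine acyltransferase, fell by 0.60 (adjusted p = 0.0315). Crat (−1.03, adjusted p = 0.0826) and Cpt1b, the muscle form of the carnitine palmitoyltransferase (−0.78, adjusted p = 0.052), passed the study thresholds only. Among 12 regulators of these genes Pparg, a nuclear receptor that acts on Cd36 and Fabp4, had 17.6 and 19.8 FPKM in WT, against 6.36 and 4.48 in MKRN1-null liver and fell by 1.63 (adjusted p = 0.0135). Hnf4a, a nuclear receptor of hepatocytes, rose by 0.53 (112 and 97.5 FPKM in WT, 145 and 158 in MKRN1-null, adjusted p = 0.0355). The median of the regulators was 0.08.

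Some of these genes are also expressed in other cells of the liver. The 7 macrophage markers summed to 93.0 and 39.8 FPKM in the WT livers and 46.1 and 48.7 in the MKRN1-null livers, with 3 of 7 lower at an adjusted p under 0.05, 5 of 7 lower by the study thresholds and none past either threshold in the other direction. The 6 endothelial markers summed to 45.8 and 28.5 FPKM in WT, against 18.6 and 22.9 in MKRN1-null liver. Of these, 1 of 6 was lower at an adjusted p under 0.05, near the share of all genes, and 4 of 6 by the study thresholds. Of all tested genes in liver, 16.9% were lower at the adjusted threshold and 13.4% by the study thresholds. The fitted log2 fold changes of the 6 endothelial markers were −0.88 to −0.54, with a median of −0.68, and the median of the 7 macrophage markers was −0.89. Of the 6 adipocyte markers 2 were tested. Cidec, a lipid droplet protein that steatotic hepatocytes also express, was lower (−3.63). The other, Cfd, had a higher fitted value that did not pass (0.37, limma, adjusted p = 0.735). The sum of the list was 103 and 104 FPKM in WT, against 38.2 and 9.81 in MKRN1-null liver. The 7 hepatocyte markers summed to 58525 to 65830 FPKM in WT, against 72223 to 74700 in MKRN1-null liver. Of these, 2 of 7 were higher at an adjusted p under 0.05, against 2.51% of all genes, and 0 were lower. Their fitted log2 fold changes were −0.18 to 0.79, with a median of 0.41. In whole tissue, a change in the number of cells of a type and a change in RNA per cell cannot be told apart. The part of these cells in the falls of Cd36, Fabp4, Lpl and Gpihbp1 was not tested. Nor was the part of hepatocytes in the rises of Acsl1 and Slc27a5 or the higher values of Slc27a2.

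In subcutaneous fat no difference between the genotypes passed a threshold for any of the 7 members tested by limma. At an adjusted p under 0.05 this was so for every gene (0 of 12164, against 6.45% at an unadjusted p under 0.05), and by the study thresholds 0 of 7 members passed, against 6.07% of all genes (0.707% higher and 5.36% lower). No member had an unadjusted p under 0.05. Mkrn1 itself passed the study thresholds in fat but not the adjusted one (−2.02, limma, unadjusted p = 0.000739, adjusted p = 0.68). The absence of adjusted calls in fat thus does not show that the genotypes were alike. Both MKRN1-null values lay below both WT values for 3 members (Cd36, Slc27a4 and Acsl1), against 36.1% of all genes, and above for none, against 9.03%. The median log2 fold change of the 7 members was −0.44, beside −0.20 for all tested genes.

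For 8 of the 9 members, all but Acsl4, the MKRN1-null fat libraries lay farther from each other than the WT fat libraries did on the log2(FPKM + 1) scale. Cd36 had 1616 and 1603 FPKM in WT fat and 1546 and 553 in MKRN1-null fat, so that replicate 1 was near WT and replicate 2 well below it (log2 fold change −0.80, 95% interval −2.38 to 0.78, limma, adjusted p = 0.682). Acsl1 had 823 and 753 FPKM in WT, against 612 and 263 in MKRN1-null fat, and both MKRN1-null values were lower (−0.97, 95% interval −2.31 to 0.37, adjusted p = 0.68). Slc27a4 had 13.0 and 13.7 FPKM in WT, against 11.7 and 6.18 in MKRN1-null fat (−0.59, 95% interval −1.45 to 0.28, adjusted p = 0.68). For these members MKRN1-null replicate 1 lay within 0.36 log2 units of the WT mean and replicate 2 lay between 0.998 and 1.58 below it.

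Of the remaining members of fat, 4 overlapped between the genotypes and 2 were at or above 1 FPKM in 1 library only. Slc27a1 had 202 and 206 FPKM in WT, against 262 and 167 in MKRN1-null fat, 1 above and 1 below WT (log2 fold change 0.04, adjusted p = 0.971). Acsl5 had 24.1 and 26.3 FPKM in WT, against 28.8 and 11.5 in MKRN1-null fat (−0.44, adjusted p = 0.72). Acsl4 had 2.89 and 6.00 FPKM in WT, against 5.46 and 4.92 in MKRN1-null fat, inside the range of WT (0.25, adjusted p = 0.767). Acsl3 had 4.63 FPKM in both WT libraries and 2.87 and 12.8 in MKRN1-null fat, again below and above WT (0.38, adjusted p = 0.806). Acsl6 had 0.073 and 0.079 FPKM in WT, 0 in the first MKRN1-null library and 8.74 in the other, of which 7.50 were from NM_144823 and 1.23 from NM_001033598. Slc27a2 had 0.0095 and 0 FPKM in WT, against 0.0096 and 1.36 in MKRN1-null fat. Neither Acsl6 nor Slc27a2 reached 1 FPKM in 2 libraries, and they were not tested. Acsl3 and Acsl6 had been named by the study as upregulated in these fat samples, which is no independent evidence. Here Acsl3 passed neither threshold, with 1 MKRN1-null value below WT and 1 above, and Acsl6 was high only in the library with muscle transcripts.

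**Figure D5:**
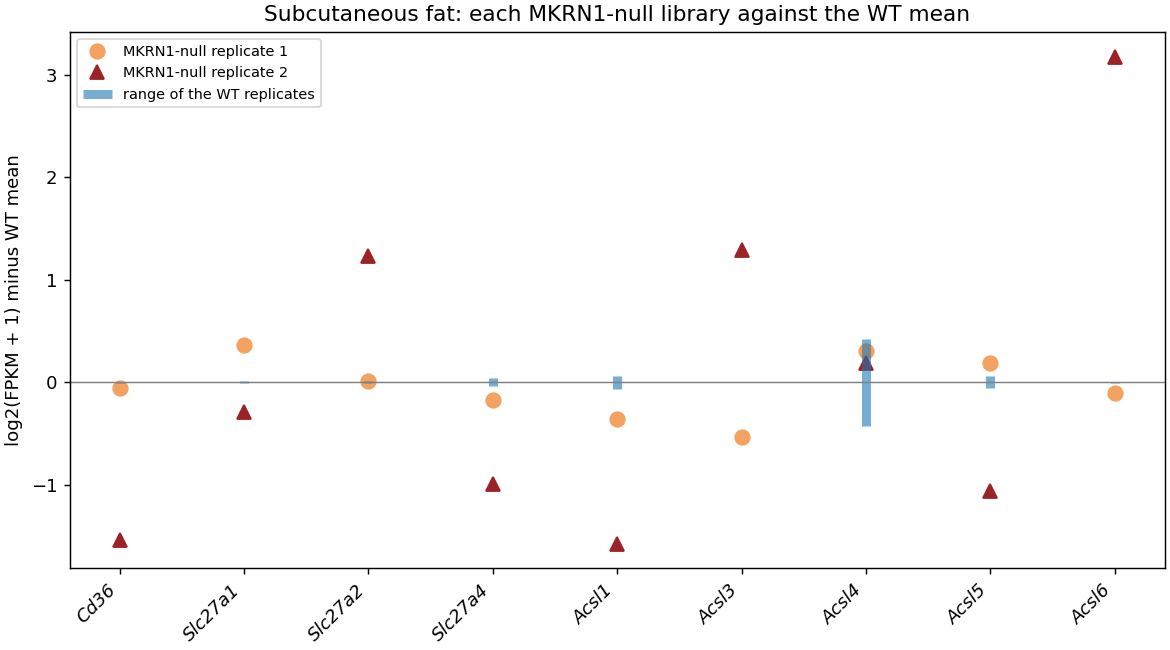
Log2(FPKM + 1) of each MKRN1-null fat library minus the mean of the WT fat libraries for each gene, with blue bars for the range of the WT replicates around their mean. Replicate 1 (circles) lies between −0.54 and 0.36, and replicate 2 (triangles) between −1.58 and 3.18.

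Without MKRN1-null replicate 1 of fat, 5 members passed the adjusted threshold in the remaining comparison of 1 against 2 libraries, Acsl1 (log2 fold change −1.58), Cd36 (−1.54), Acsl5 (−1.07) and Slc27a4 (−0.998) lower and Acsl3 (1.29) higher, with adjusted p of 0.00487 to 0.00688. In the same fit 52.5% of all 12004 genes passed, so that the count of members is not read as particular to them. The single MKRN1-null library was then taken to vary as the WT libraries did. Without MKRN1-null replicate 2, the library with muscle transcripts, the values were −0.36 for Acsl1, −0.06 for Cd36, 0.19 for Acsl5, −0.18 for Slc27a4 and −0.54 for Acsl3. The direction of Acsl3 and Acsl5 was thus set by which library was used. Scaling FPKM to the sum of genes outside the muscle list, which held 20.7% of all FPKM in that library, gave 0 members, with −0.73 for Cd36 and −0.91 for Acsl1. In the same library the 6 endothelial markers summed to 64.6 FPKM (130 in the other MKRN1-null library, 189 and 248 in WT), the 7 macrophage markers to 61.2 (215, and 213 and 331 in WT) and the 6 adipocyte markers to 9701 (15853, and 10394 and 9858 in WT). The part of muscle in the values of Acsl3 and Acsl6 was not tested.

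More hepatocyte genes were also detected in that fat library, although the sum of the markers was higher in the other MKRN1-null library (303 against 463 FPKM), through Cyp2e1 (278 against 451). Of the 7 hepatocyte markers 6 were at or above 1 FPKM in it, against 3 in each of the other fat libraries. Slc27a2 was there at 0.231% of its level in WT liver, Apoa1 at 0.0362%, Ahsg at 0.0323% and Alb at 0.0448%. Ttr was at 0.0306%, Fgb at 0.0362%, Serpina1a at 0.0925% and Cyp2e1 at 7.96%. Serpina1a was not raised in that library, at 1.87 FPKM, against 1.90 in the other MKRN1-null fat and 2.83 and 2.26 in WT fat. The part of hepatocyte RNA in the 1.36 FPKM of Slc27a2 was not tested.

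In fat 0 of 7 genes of the carnitine shuttle, 0 of 11 uptake partners, 0 of 8 other synthetases, 0 of 13 binding and thioesterase genes and 0 of 8 regulators passed either threshold in limma, and none had an unadjusted p under 0.05. Of 14 transcripts of the members tested in fat, 0 had an adjusted or an unadjusted p under 0.05, against 0% of 15726 transcripts at the adjusted threshold. The median log2 fold changes of the gene lists, in the order given above, were −0.18, −0.62, −0.07, −0.20 and −0.25, beside −0.20 for all genes. Cpt1b was at 5.20 and 3.78 FPKM in WT, against 2.88 and 72.2 in MKRN1-null fat, with the high value in the library with muscle transcripts. Fabp4 was at 25608 and 30064 FPKM in WT, against 30971 and 12745 in MKRN1-null fat. Pparg was at 115 and 116 FPKM in WT, against 102 and 54.5 in MKRN1-null fat.

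Whether the effect of the genotype differed between the tissues was tested by an interaction term over the 9917 genes expressed in both, of which 0% had an adjusted p under 0.05. None of the 7 members tested passed. Acsl1 was higher in both MKRN1-null livers (0.48) and lower in both MKRN1-null fat libraries (−0.97), and the difference between these effects was 1.45 ± 0.52 log2 units (limma, unadjusted p = 0.0286, adjusted p = 0.588). For Cd36 the difference was −1.61 ± 0.66 (unadjusted p = 0.0464, adjusted p = 0.637). The other 5 members had an unadjusted p of at least 0.0844. Without MKRN1-null fat replicate 2, Acsl1 (0.85, adjusted p = 0.038) and Cd36 (−2.35, adjusted p = 0.0263) passed, and without MKRN1-null fat replicate 1, Acsl1 (2.06, adjusted p = 0.000616), Acsl3 (−2.43, adjusted p = 0.00205) and Slc27a4 (0.46, adjusted p = 0.0427) passed. In these fits 3.13% and 26.8% of all genes passed, and the single MKRN1-null fat library was taken to vary as the other groups did, so they are not a test of the difference in fat with replicates. Liver and fat of 1 replicate number carry the same mouse number. With the mouse as a block, 0 members passed the interaction and 7 the comparison of the WT tissues, as without it. The interaction shares the WT libraries with the comparison of the WT tissues.

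Across the 8 libraries the genes whose log2(FPKM + 1) was most like that of each member were found among 12635 genes by Pearson's r. The points are 4 libraries of each of 2 tissues and the values follow the difference between tissues for most members, so r is given as a description. For Cd36 they were Flot1 (r = 0.999), Kctd17 (0.999) and Rab34 (0.999). Kctd17 was at 7.46 and 7.87 FPKM in WT liver, 1.96 and 1.59 in MKRN1-null liver, 60.7 and 64.5 in WT fat and 60.9 and 27.9 in MKRN1-null fat, an order like that of Cd36. Slc27a2 was most like Apoa1 (r = 0.9998), Slc27a1 like Hddc2 (0.999), Slc27a4 like Nadk (0.996), Acsl1 like Cebpa (0.997), Acsl5 like Ebpl (0.997), Acsl3 like Tmem64 (0.987) and Acsl4 like Snhg17 (0.972). Cebpa, a transcription factor of adipocytes and hepatocytes, was at 169 and 167 FPKM in WT liver, 201 and 203 in MKRN1-null liver, 325 and 297 in WT fat and 271 and 165 in MKRN1-null fat. Tmem64 was at 14.1 and 14.0, 7.42 and 6.35, 6.91 and 7.07, and 5.53 and 16.1 FPKM in the same order, with the same low and high MKRN1-null fat values as Acsl3.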

How the data were processed

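The authors deposited 1 table per library of 36780 transcripts with FPKM, TPM and coverage, made, per the labels, with HISAT2, SAMtools and StringTie 1.3.3b on mm10, while the methods of the paper name TopHat2, Cufflinks and HTSeq. These deposited FPKM are scaled to depth and are not counts. Transcript FPKM was added up for each of 24532 Entrez genes, of which 24462 had a symbol in the RefSeq table. Genes at 1 FPKM or more in at least 2 of the 4 libraries of a tissue were tested. Log2(FPKM + 1) was fitted per tissue with limma 3.58.1 (lmFit, eBayes with a variance trend) in R 4.3.3. The comparison between WT tissues used the 4 WT libraries, and the interaction all 8. Log2 fold changes of FPKM + 1 understate changes of low genes. Depth (5.72 to 9.24 aligned gigabases) was the ratio of coverage to FPKM, and limits precision for members under 1 FPKM. The procedure was tested on simulated data. Tables and figures were made with Python 3.11.15, pandas 2.3.3, numpy 2.4.6 and matplotlib 3.10.9.

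The members and the lists were chosen with earlier results of these data known. Named were every member, Mkrn1, up to 4 genes per list and tissue with the largest change past either threshold, the genes most like each member (3 for Cd36, 1 for each other), and transcripts above 1 FPKM. Slc27a5, Cidec, Cfd and the genes named in fat from the lists were chosen after their values were seen. The labels call the replicates separate samples without naming the animals, so p measures the spread between these samples. Within a tissue the labels give the replicate numbers of WT and MKRN1-null no shared meaning. The liver and fat of 1 number carry the same mouse number in the names of the deposited tables. The deviations of liver and fat libraries of 1 mouse from their group means correlated at 0.0646 in WT and 0.0567 in MKRN1-null mice. Alternatives were a pseudocount of 0.1, TPM, no filter, a filter at 5 FPKM, median-of-ratios scaling, quantile normalization, no variance trend, the replicate block, all 8 libraries in 1 fit, scaling outside the muscle list and leaving out each library.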

Additional observations from a re-analysis of the deposited data

Results flagged for a closer look

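Acsl1 was flagged because every MKRN1-null library moved one way in liver and the other way in subcutaneous fat. Both MKRN1-null livers (344 and 354 FPKM) were above both WT livers (248 and 251), and both MKRN1-null fat libraries (612 and 263) were below both WT fat libraries (823 and 753). The difference between the effects was 1.45 log2 units, liver minus fat, and its interaction test did not pass (limma, adjusted p = 0.588, unadjusted p = 0.0286). The lower of the MKRN1-null fat values came from the library that also held the skeletal muscle transcripts. The difference was 0.85 without that library and 2.06 without the other MKRN1-null fat library, and the part of muscle in it was not tested. Of the 7 members tested in both tissues it was the only one whose groups did not overlap in either tissue and had opposite directions. Among all tested genes, both MKRN1-null values lay above both WT values for 11.8% in liver and 9.03% in fat. They lay below for 57.5% in liver and 36.1% in fat. The share of all genes with opposite directions is not given, so the pattern is not read as particular to Acsl1. Acsl4 was also below the WT mean in both MKRN1-null livers and above it in both MKRN1-null fat libraries, but its groups overlapped in fat.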

How the results depend on the processing

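In liver the count of 4 members at the adjusted threshold was 3 to 5 under the alternatives, except 0 with all 8 libraries in 1 fit, and 1 to 3 with each library left out. By the study thresholds the count of 3 was 1 with all 8 libraries in 1 fit and 2 to 3 with each library left out. In fat the count of 0 by the study thresholds was 1 with all 8 libraries in 1 fit (Acsl1), and both counts were 0 to 5 with each library left out, 5 without MKRN1-null replicate 1. The count of 0 members with a difference between tissues was 0 to 3 with each library left out. That of 7 between the WT tissues was 5 to 7 with each library left out. Of 3 transcripts in liver, 1 passed with a pseudocount of 0.1, 1 with median-of-ratios scaling and 1 with quantile normalization. With no filter, with the replicate block or with each library left out, 0 passed. The count of 0 transcripts in fat was 0 to 10 with each library left out. Such a fit leaves 1 library against 2, and the share of all transcripts called in it is not given. The share of all genes called is not given here for the other alternatives either. The counts of this paragraph are therefore not read as particular to the members.

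With the replicate number as a block, liver gave 3 members, Acsl1 being lost (adjusted p = 0.0564), and no other count of members changed. The deviations of same-numbered WT and MKRN1-null samples correlated at 0.00139 in liver and 0.107 in fat. Liver and fat of 1 mouse number gave 0.0646 in WT and 0.0567 in MKRN1-null mice. These values do not tell whether the numbers pair samples within a tissue.

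Directions turned for values that were near 0 or rested on 1 library. Slc27a1 in liver (−0.15) was 0.055 with median-of-ratios scaling and 0.070 with quantile normalization, and −0.48 to 0.17 with each library left out. In fat it was −0.066 with TPM and −0.29 to 0.36 with each library left out, where Acsl3 was −0.54 to 1.29, Acsl4 −0.18 to 0.67 and Acsl5 −1.07 to 0.19. For the difference between tissues, leaving out each library gave −0.52 to 0.14 for Slc27a1, −0.36 to 0.46 for Slc27a4 and −0.97 to 0.29 for Acsl5. The directions of Acsl3 and Acsl5 in fat turned without MKRN1-null replicate 2, and that of Acsl4 without WT replicate 1. The cause was not tested. The median log2 fold change of all genes in liver moved from −0.17 to 0.05 with median-of-ratios scaling and 0.03 with quantile normalization, and in fat from −0.20 to 0.01 with either. The share of lower genes among those called in liver was 87.1%, 56.3% with median-of-ratios scaling and 61.7% with quantile normalization.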
